A study of Rattus norvegicus with 6 samples.

Results

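The NRF2 antioxidant response was described in liver RNA from 2 groups of 3 libraries, all from animals on a high-fat diet: the HFD group, and the HTG group, which was also treated with the Huazhuo Tiaozhi granule, a herbal formula. It was represented by 10 genes, taken by gene symbol from the 32930 gene rows of the deposited table: Nfe2l2, Keap1, Nqo1, Hmox1, Gclc, Gclm, Gsr, Txnrd1, Srxn1 and Osgin1. Each symbol had 1 row, and all 10 passed the expression filter. By the series' design text the intervention lasted 12 weeks, and the HFD group also received 0.5% CMC-Na (sodium carboxymethyl cellulose), while no vehicle is given there for the HTG group. In the paper's rat experiment the high-fat diet lasted 12 weeks, and drugs were given only in a later part of it. There the drugs were also given in 0.5% CMC-Na. Whether these libraries came from that experiment was left unsettled. The treatment field of the HTG libraries spells the agent HCG, and their titles spell it HTG. The labels call the animals rats, the RNA sequencing paragraph of the paper names C57BL/6 J mice, and the gene rows carry mouse Ensembl identifiers, so species, strain, sex and age of these animals were taken as unsettled and the values were read as mouse gene rows.

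NRF2, encoded by Nfe2l2, is the transcription factor that switches on cell defences against oxidants and electrophiles. Its partner KEAP1 holds it in the cytosol and delivers it to a ubiquitin ligase, so that NRF2 protein is short-lived until oxidants or electrophiles modify KEAP1. NRF2 then binds antioxidant response elements together with a small MAF protein and raises enzymes of glutathione synthesis, thioredoxin recycling, quinone reduction and heme breakdown. NRF2 activity is set largely by protein stability, which mRNA does not measure.

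Each library had 2 values per gene, an estimated count and an FPKM value, which divides by transcript length and library size. The estimated counts summed to between 50648778 and 90563477 per library, lowest in HTG library 3 and highest in HTG library 2. Among low counts 4 was listed 6450 times, against 2549 times for 3 and 1757 times for 5, so a count may not stand for 1 fragment, and the number of fragments is not known. Hepatocyte markers (8 genes) summed to 94950 to 105400 CPM in the HFD group and 93700 to 102000 in the HTG group. CPM is the count divided by the normalised library size, on a scale common to all libraries. That sum was mostly Alb (means 66150 CPM in HFD and 54380 in HTG) and hides changes of single markers. Apoa1 rose from a mean of 7159 to 16860 CPM, and Tat fell from 1818 to 730.1 CPM. These were the 1 higher and the 1 lower of the 8 at an adjusted p under 0.1 in edgeR's quasi-likelihood test. Over all genes tested, 5.41% were higher and 5.43% lower at that threshold. Counts were compared by edgeR's quasi-likelihood test over 18455 genes, with Benjamini-Hochberg adjustment over all of them. Fold changes are given as HTG against HFD on the log2 scale with a standard error (SE). The labels do not say whether any library pooled animals.

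The element bound by NRF2 is shown here because it is how these genes are known to be connected. Its core, TGACNNNGC, was searched on both strands in RefSeq promoter windows of the rat build GRCr8, each running from 250 bases before to 50 bases after a start site. Rat is the species of the sample labels, whereas the counted rows are mouse genes. Windows matched 8 of the 10 genes by symbol (9 windows, 2 of them for Txnrd1), and no window carried the symbol Hmox1 or Gsr. A match stood in 3 of the 9 windows, for Gclm, Txnrd1 and Nfe2l2, against 12.1% of the 33469 windows in the table. In the lines below the capitals mark the match, which in both reads on the reverse strand. The Gclm match began 172 bases before the start site and the Txnrd1 match 78 bases before it. The Nfe2l2 match lay after its start site, at base 39. A match is a run of letters and not a measured binding site, and these letters were not in the windows of Srxn1, Nqo1, Osgin1, Keap1 or Gclc. Sequence outside the windows was not searched, so elements further from the start sites would be missed.
Gclm, chr2:213031943-213031991, plus strand: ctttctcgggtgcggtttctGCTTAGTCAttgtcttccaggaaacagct
Txnrd1, chr7:22755954-22756002, minus strand: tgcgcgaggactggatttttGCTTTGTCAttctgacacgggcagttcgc

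In the HTG group Srxn1 and Txnrd1, whose enzymes act beside thioredoxin, and the quinone reductase gene Nqo1 were lower, and Osgin1 was higher. Each had an adjusted p under 0.1 in edgeR's quasi-likelihood test. These were 4 of the 10 genes, against 10.8% of all genes tested at the same threshold. No gene of the 10 had an adjusted p under 0.05 in that test, which 0.0108% of all genes reached (0.00542% in each direction), and 6 had an unadjusted p under 0.05, against 24.7% of all genes. DESeq2 called 5 of the 10 at an adjusted p under 0.05, against 13.8% of all genes in that fit. Limma on log2(FPKM + 0.1) called 3 when low genes (mean FPKM under 1) were left out, against 8.03% of all genes there, and 0 when they were kept. Of the 10 fitted changes 9 were downward and 1 was upward. Their median log2 fold change was -0.41, beside 0.025 over all genes tested, of which 48.4% were lower. The groups did not overlap in CPM in 6 of the 10 genes, against 32.1% of all genes: 5 lay lower and 1 higher in the HTG group, against 15.5% and 16.5%. The 10 genes and the thresholds were chosen with earlier results of these data known, so these shares are a background and not a test.

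The 4 calls at an adjusted p under 0.1 depended on single libraries, as did the calls over all genes. Without HFD library 1 only Srxn1 kept an adjusted p under 0.1, and without HFD library 2, HFD library 3, HTG library 2 or HTG library 3 none did (edgeR's quasi-likelihood test). Without HTG library 1 the number was 6, with Gsr and Hmox1 added, where 2578 of 19304 genes were called in all. All of Srxn1, Txnrd1, Nqo1, Gsr and Osgin1 kept their direction and an unadjusted p under 0.05 in each of the 6 fits that left out 1 library. These fits share most of their libraries, and the share of all genes at that threshold was not computed for them.

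**Figure D1:**
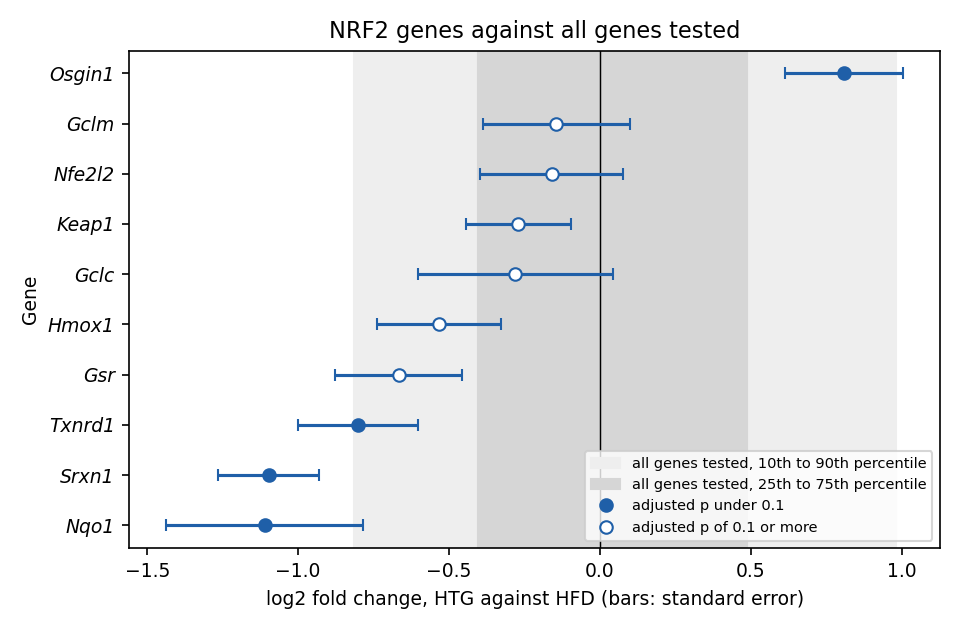
Log2 fold change of each NRF2 gene, HTG against HFD (points, with bars of 1 SE), over the grey bands that hold the central part of all 18455 genes tested. Filled points mark an adjusted p under 0.1 in edgeR's quasi-likelihood test. Srxn1 (-1.10) and Nqo1 (-1.11) lie below the 10th percentile of all genes (-0.82), and Osgin1 (0.81) lies between the 75th and the 90th (0.49 and 0.98).

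Among the regulators, the mRNA of the factor itself did not separate the groups. Nfe2l2 (ENSMUSG00000015839, chromosome 2, 75505857 to 75534985, as the table lists it without naming a build) had 77.2, 77.2 and 84.0 CPM in HFD libraries 1, 2 and 3 and 58.1, 98.1 and 57.0 CPM in HTG libraries 1, 2 and 3. HTG library 2 was thus the highest of all 6 libraries, and the other 2 HTG libraries were the lowest. The HFD libraries lay close together (79.5 ± 3.89 CPM, SD, n = 3), and the HTG libraries were spread wide (71.1 ± 23.4 CPM, SD, n = 3). The log2 fold change was -0.16 (SE 0.24, adjusted p = 0.712 in edgeR's quasi-likelihood test). Without HTG library 2 it was -0.47, with an unadjusted p of 0.0349 and an adjusted p of 0.278 in the same test.

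Keap1, which encodes the sensor that restrains NRF2, had 46.9, 53.1 and 53.3 CPM in the HFD libraries and 48.4, 35.9 and 42.7 CPM in the HTG libraries. HTG library 1 lay within the HFD range and the other 2 HTG libraries lay below it. The log2 fold change was -0.27 (SE 0.17, adjusted p = 0.374 in edgeR's quasi-likelihood test). The antisense row Gm16754 overlaps Keap1 and had 98 to 486 counts, beside 2002 to 3827 for Keap1, and the use of strand in the counting is not given in the sources used here.

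The ratio of Nfe2l2 to Keap1 FPKM within a library does not depend on scaling between libraries. In libraries 1, 2 and 3 it was 2.04, 1.80 and 1.95 for the HFD group and 1.48, 3.38 and 1.65 for the HTG group. HTG library 2 stood above every other library and the remaining HTG libraries stood below all HFD libraries. On the log2 scale the group means differed by 0.071 (exact two-sided permutation test over the 6 libraries, p = 1, where the smallest possible p is 0.1). Without HTG library 2 the difference was -0.30.

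Srxn1 and Txnrd1, which act beside thioredoxin, were lower in every HTG library than in any HFD library. Srxn1 (ENSMUSG00000032802, chromosome 2, 151947436 to 151951242) encodes sulfiredoxin, which restores peroxiredoxins that have been over-oxidised. It had 58.3, 71.6 and 60.2 CPM in the HFD libraries and 31.6, 26.5 and 30.7 CPM in the HTG libraries. The lowest HFD library was well above the highest HTG library, and the spread within each group was small (63.4 ± 7.17 and 29.6 ± 2.70 CPM, SD, n = 3 per group). Srxn1 fell by 1.10 on the log2 scale (SE 0.17), a level 2.14-fold lower, with the smallest adjusted p of the 10 genes, 0.0538 in edgeR's quasi-likelihood test. Its adjusted p lay between 5.95e-06 and 0.188 over the 16 alternative fits, of which 7 put it under 0.05.

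Txnrd1 (ENSMUSG00000020250, chromosome 10, 82669785 to 82733546) encodes the cytosolic thioredoxin reductase, a selenoprotein that uses NADPH to keep thioredoxin reduced. It had 160.4, 187.2 and 188.8 CPM in HFD libraries 1, 2 and 3 and 120.6, 84.5 and 102.8 CPM in HTG libraries 1, 2 and 3. Again the groups did not overlap, and HTG library 2 was lowest. Txnrd1 fell by 0.80 on the log2 scale (SE 0.20), 1.74-fold, at an adjusted p of 0.0671 in edgeR's quasi-likelihood test. The rows that overlap its span (Eid3, Gm38560 and Gm47073) held at most 33 counts in any library, beside at least 4816 for Txnrd1.

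Quinone reduction and heme breakdown are carried by 2 enzymes that protect against redox cycling and free heme. Nqo1 (ENSMUSG00000003849, chromosome 8, 108114857 to 108129838) encodes the reductase that converts quinones to hydroquinones in a single step. It had the lowest FPKM of the 10 genes, and its counts in libraries 1, 2 and 3 were 745, 381 and 634 for the HFD group and 403, 374 and 130 for the HTG group. In CPM these were 10.9, 5.71 and 8.83 in the HFD group and 5.17, 3.83 and 2.77 in the HTG group, so HFD library 2 lay only just above HTG library 1. Nqo1 fell by 1.11 on the log2 scale (SE 0.33), 2.16-fold, at an adjusted p of 0.0936 in edgeR's quasi-likelihood test. Its lowest count was 130, in HTG library 3, which also had the lowest total.

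Hmox1 (ENSMUSG00000005413, chromosome 8, 75820249 to 75827217) encodes heme oxygenase 1, which opens heme to biliverdin, iron and carbon monoxide and is abundant in liver macrophages. It had 69.7, 70.9 and 61.1 CPM in the HFD libraries and 59.2, 38.0 and 42.0 CPM in the HTG libraries. The groups did not overlap, but HTG library 1 lay only just below HFD library 3. The log2 fold change was -0.53 (SE 0.21, unadjusted p = 0.0307, adjusted p = 0.157 in edgeR's quasi-likelihood test). Of the 6 fits without 1 library, 2 kept an unadjusted p under 0.05.

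Macrophage markers were set beside Hmox1, and most overlapped between the groups, as did most of all genes tested. The fitted change was downward for all 10 listed Kupffer cell and macrophage markers (median -0.44 on the log2 scale), and their summed level was 764.3 to 1262 CPM in the HFD libraries and 503.8 to 908.8 CPM in the HTG libraries, ranges that overlap. The groups overlapped in CPM for 8 of the 10, and 2 (Adgre1 and Csf1r) lay apart, both lower, against 15.5% of all genes. For 2 of the 10 the unadjusted p was under 0.05, both lower, against 12.4% of all genes. Adgre1, the gene of the macrophage surface protein F4/80, was the only 1 of them at an adjusted p under 0.1 (log2 fold change -1.53, SE 0.26, adjusted p = 0.0538 in edgeR's quasi-likelihood test), where 5.43% of all genes were lower. Cd5l was the other with an unadjusted p under 0.05 (log2 fold change -0.855, unadjusted p = 0.0281, adjusted p = 0.15 in the same test). Nearest to 0 of the 10 were Clec4f, a Kupffer cell lectin, and Timd4, a receptor of resident Kupffer cells. Clec4f had -0.08 (adjusted p = 0.894) and Timd4 had -0.02 (adjusted p = 0.988 in the same test). No marker on the list was at 0 in all libraries. In bulk liver, fewer cells of a type and less RNA per cell cannot be told apart, and the part of macrophages in the level of Hmox1 was not tested. Markers of pericentral hepatocytes, those next to the central vein, also differed: their 6 genes summed to 3504 to 3983 CPM in the HFD group and 1443 to 2182 CPM in the HTG group, with 4 lower at an adjusted p under 0.1 (Cyp1a2, Slc1a2, Oat and Glul), against 5.43% of all genes. The other two, Lgr5 and Axin2, had log2 fold changes of 0.12 and -0.40. The 7 periportal markers summed to 10580 to 11550 CPM in the HFD group and 5228 to 7042 CPM in the HTG group, with Cps1 (mean 2751 to 896.3 CPM) and Ass1 (2991 to 1361 CPM) lower at that threshold. The remaining periportal markers missed it, with log2 fold changes of -0.67 for Pck1, -0.51 for Cyp2f2, -0.12 for Arg1, 0.13 for Hal and 0.20 for Sds. Summed levels of the red cell, sinusoidal endothelium, stellate cell, biliary and neutrophil markers overlapped between the groups in range. These sums hide single markers. The stellate cell marker Reln was lower (adjusted p = 0.0935) and the biliary marker Sox9 higher (adjusted p = 0.0939 in the same test). No other marker of these lists had an adjusted p under 0.1, where 5.43% of all genes were lower and 5.41% higher. Whether zonal genes had a part in the changes of the NRF2 genes was not tested.

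**Figure D2:**
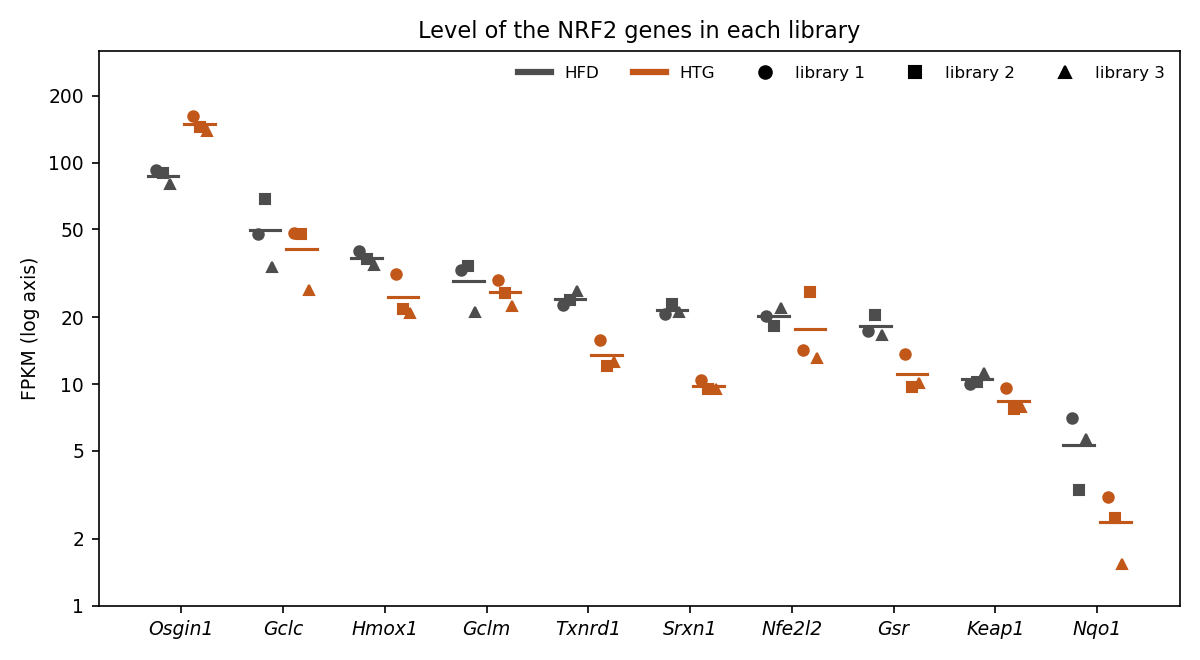
FPKM (log axis) of the 10 NRF2 genes in each library, ordered by the HFD mean, with grey HFD and orange HTG points, a symbol for each library number and a bar at each group mean. Osgin1 is highest in both groups (87.5 and 149 FPKM) and Nqo1 lowest (5.34 and 2.38 FPKM), and the HTG points of Srxn1 (9.47 to 10.4 FPKM) lie far below its HFD points (20.8 to 22.9 FPKM).

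The glutathione ligase genes varied widely within the HFD group, and neither separated the groups. Gclc encodes the catalytic subunit of glutamate-cysteine ligase, the rate-limiting enzyme of glutathione synthesis. It had 178.2, 284.5 and 128.6 CPM in HFD libraries 1, 2 and 3 and 193.7, 177.7 and 115.4 CPM in HTG libraries 1, 2 and 3. The groups overlapped, and the lowest and highest HFD libraries were further apart than the group means. The log2 fold change was -0.28 (SE 0.32, adjusted p = 0.628 in edgeR's quasi-likelihood test), and without HFD library 2 it was 0.08.

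Gclm encodes the modifier subunit of the same ligase, which raises its efficiency. It had 206.0, 236.8 and 134.5 CPM in the HFD libraries and 198.9, 160.9 and 162.5 CPM in the HTG libraries. All HTG libraries lay inside the HFD range, where library 3 was lowest and library 2 highest, as for Gclc. The log2 fold change was -0.14 (SE 0.25, adjusted p = 0.751 in edgeR's quasi-likelihood test), and without HFD library 2 it was 0.03. The antisense row Gm17494, which overlaps Gclm, had 439 to 1207 counts, beside 7614 to 15794 for Gclm.

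Between these subunits the ratio of Gclc to Gclm FPKM in libraries 1, 2 and 3 was 1.44, 2.01 and 1.60 for the HFD group and 1.63, 1.85 and 1.19 for the HTG group. The ranges overlapped, and the log2 ratios differed by -0.13 between the group means (exact two-sided permutation test over the 6 libraries, p = 0.7). With 2 such ratios tested, both adjusted p-values were 1.

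Gsr encodes glutathione reductase, which returns oxidised glutathione to its reduced form with NADPH. It had 48.0, 62.7 and 46.3 CPM in the HFD libraries and 40.2, 26.5 and 32.1 CPM in the HTG libraries. Every HTG library lay below every HFD library. The log2 fold change was -0.67 (SE 0.21, unadjusted p = 0.0127), and its adjusted p of 0.106 in edgeR's quasi-likelihood test just missed 0.1. Over the 16 alternative fits the adjusted p lay between 0.0416 and 0.306, and all 16 gave an unadjusted p under 0.05.

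Osgin1 (ENSMUSG00000074063, chromosome 8, 120160863 to 120172995) encodes an oxidative stress-induced growth inhibitor and was the only 1 of the 10 genes with a higher level in the HTG group. It had 246.7, 266.1 and 215.3 CPM in the HFD libraries and 465.0, 383.0 and 427.1 CPM in the HTG libraries. The groups lay far apart, with HTG library 1 highest and HFD library 3 lowest. Osgin1 rose by 0.81 on the log2 scale (SE 0.20), 1.75-fold, at an adjusted p of 0.0644 in edgeR's quasi-likelihood test. Its direction was upward in all 16 alternative fits, with log2 fold changes from 0.70 to 0.88, and 4 of them gave an adjusted p under 0.05.

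**Figure D3:**
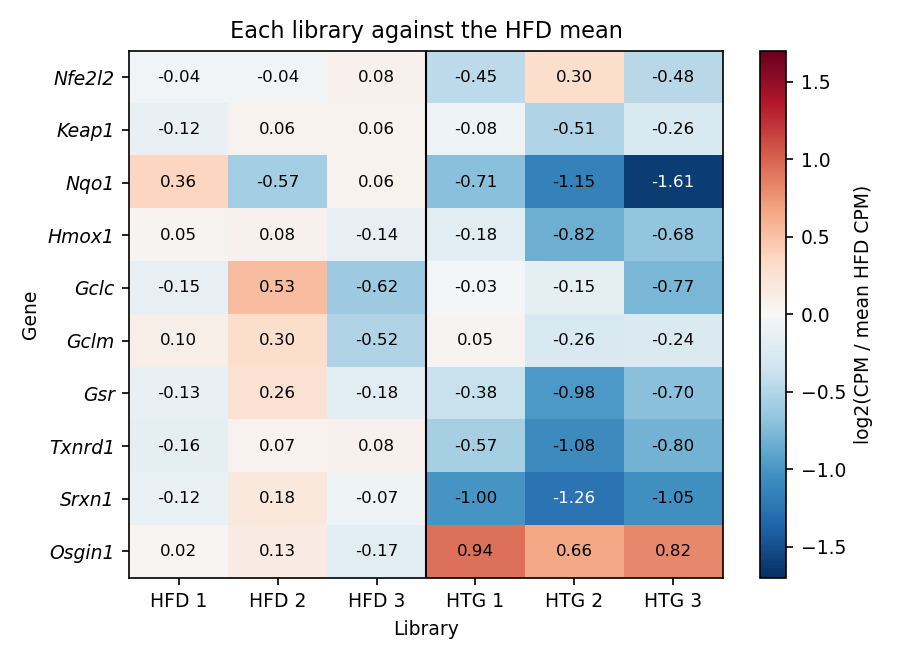
Log2 ratio of each library's CPM to the HFD mean for the 10 NRF2 genes (rows) in the 6 libraries (columns), blue below and red above the HFD mean. The lowest value of the map is that of Nqo1 in HTG library 3 (-1.61). Osgin1 lies between 0.66 and 0.94 in the HTG libraries, whereas Nfe2l2 is at 0.30 in HTG library 2 and at -0.45 and -0.48 in the other two.

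The libraries of each group did not carry the same pattern. HTG library 2 was the lowest of all 6 libraries for 5 genes (Keap1, Hmox1, Gsr, Txnrd1 and Srxn1) and the highest for Nfe2l2. HTG library 1 had the highest CPM of the HTG group for 8 of the 9 genes with a downward fitted change, the exception being Nfe2l2. HFD library 2 was the highest of all libraries for 5 genes (Hmox1, Gclc, Gclm, Gsr and Srxn1), and HFD library 3 was the lowest for Gclm and Osgin1.

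Per length, Osgin1 stood first and Nqo1 last in both groups. In the HFD group the mean FPKM ran from Osgin1 (87.5 ± 6.63, SD, n = 3) over Gclc (49.9 ± 17.3), Hmox1 (37.0 ± 2.66), Gclm (29.4 ± 7.07), Txnrd1 (24.3 ± 1.92), Srxn1 (21.6 ± 1.15), Nfe2l2 (20.2 ± 1.80), Gsr (18.2 ± 2.07) and Keap1 (10.5 ± 0.673) to Nqo1 (5.34 ± 1.89). Osgin1 stood clear of Gclc, Hmox1 of Gclm, Gsr of Keap1 and Keap1 of Nqo1, and the FPKM ranges of the other neighbours overlapped. In the HTG group Srxn1 moved from position 6 to position 8 (9.80 ± 0.552 FPKM) and Nfe2l2 from 7 to 5 (17.8 ± 7.21 FPKM). There Osgin1 stood clear of Gclc (149 ± 12.1 against 40.8 ± 12.2 FPKM) and Keap1 of Nqo1 (8.43 ± 1.05 against 2.38 ± 0.780 FPKM), and all other neighbours overlapped.

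Further genes of the pathway were described by lists of 82 genes in 8 groups, of which 80 were tested. The lists were chosen with earlier results of these data known, so the shares over all genes are no test of the lists. At an adjusted p under 0.1, 14 were lower and 0 were higher in the HTG group (edgeR's quasi-likelihood test), against 5.43% and 5.41% of all genes tested. At an unadjusted p under 0.05 the numbers were 30 lower and 3 higher, against 12.4% and 12.3%. The fitted change was downward in 63 of the 80, and the median log2 fold change was -0.46, beside 0.025 over all genes tested. The count of 14 was 1 without HFD library 1 or HFD library 2, 0 when HTG library 2, HTG library 3 or HFD library 3 was left out, and 24 without HTG library 1, where 2578 of 19304 genes were called in all. DESeq2 gave 26, with 3444 of 18455 genes called in all. Gpx2, a glutathione peroxidase, had 8, 15 and 18 counts in the HFD group and 0 in each HTG library, and Aldh3a1, an aldehyde dehydrogenase, had 0, 0 and 13 counts and 0 in each HTG library, so that neither passed the filter.

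Among 12 further regulators, 3 were lower at an adjusted p under 0.1, against 5.43% of all genes tested. Cul3, the scaffold of the ubiquitin ligase that KEAP1 serves, fell from 58.7 ± 8.33 to 33.7 ± 6.02 CPM (means ± SD, n = 3 each), at an adjusted p of 0.0659. Maff, a small MAF partner of NRF2, fell from 6.03 ± 1.60 to 2.79 ± 0.727 CPM (adjusted p = 0.0845). Nfe2l1, which encodes the related factor NRF1, fell from 111.6 ± 17.5 to 68.8 ± 14.0 CPM (adjusted p = 0.0988). Rbx1, the RING subunit of the same ligase, had a log2 fold change of 0.41 with an adjusted p of 0.136 (all from edgeR's quasi-likelihood test). In the regulators as a whole 8 fitted changes were downward and 4 upward, beside 48.4% downward over all genes tested.

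Glutathione peroxidases, glutaredoxins and transferases had 16 downward and 1 upward fitted changes among the 17 tested, beside 48.4% downward over all genes. Gsta1, which conjugates glutathione to electrophiles, had 852, 140 and 496 counts in HFD libraries 1, 2 and 3 and 99, 63 and 32 counts in HTG libraries 1, 2 and 3. It fell by 3.04 on the log2 scale (SE 0.63, adjusted p = 0.0585 in edgeR's quasi-likelihood test), the largest change of any gene on these lists. Gsta3, at a far higher level, fell from 1752 ± 157.8 to 745.6 ± 325.9 CPM (means ± SD, n = 3 each, adjusted p = 0.0723). Gstm3 had 319.2, 51.4 and 227.0 CPM in the HFD libraries and 22.6, 46.0 and 55.8 CPM in the HTG libraries, so that its groups overlapped through HFD library 2 (log2 fold change -2.26, adjusted p = 0.0806). Some transferase genes, such as Gsta1 and Gsta2, are near-identical, and how the counting split reads between them is not given in the sources used here, so their values are uncertain.

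Glutathione synthesis and transport had no gene of 10 at an adjusted p under 0.1 in edgeR's quasi-likelihood test. In the same test 4 had an unadjusted p under 0.05, against 24.7% of all genes tested. Slc7a11, the cystine carrier that feeds glutathione synthesis, had 1.15 ± 0.222 CPM in the HFD group and 0.512 ± 0.290 CPM in the HTG group (means ± SD, n = 3 each). Its log2 fold change was -1.16, with an adjusted p of 0.200. Its partner chain Slc3a2 had -0.38 and the exporter Abcc3 had -0.58, with adjusted p-values of 0.192 and 0.201. Chac2, which breaks down glutathione, had 0.49 with an adjusted p of 0.156.

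Of 12 thioredoxins and peroxiredoxins, Prdx3, the mitochondrial peroxiredoxin, fell from 98.5 ± 27.3 to 53.4 ± 12.0 CPM (means ± SD, n = 3 each), at an adjusted p of 0.0937. Prdx6 and Prdx1, which remove peroxides in the cytosol, had log2 fold changes of -0.75 and -0.69 with adjusted p-values of 0.132 and 0.183. Txn1, the thioredoxin that Txnrd1 reduces, had 0.50 with an adjusted p of 0.158, and its CPM were higher in every HTG library (206.6 ± 12.0) than in any HFD library (146.5 ± 23.4). The CPM of thioredoxin and those of its reductase lay apart between the groups in opposite directions (edgeR's quasi-likelihood test for all p-values). Over all genes tested, the groups lay apart upward in 16.5% and downward in 15.5%, and Txn1 missed an adjusted p of 0.1.

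**Figure D4:**
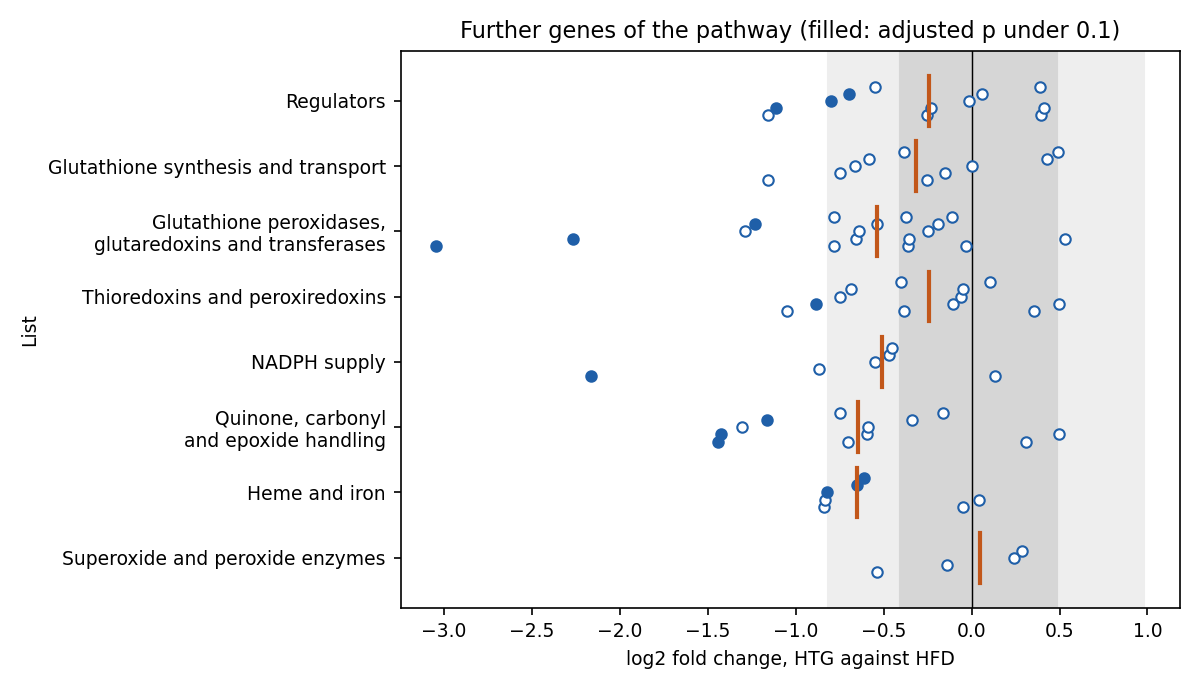
Log2 fold change, HTG against HFD, of each further pathway gene tested (points) by list, with an orange bar at the list median and grey bands for the 10th to 90th and 25th to 75th percentiles of all genes tested. The medians lie below 0 in all lists except superoxide and peroxide enzymes (0.05), and no filled point (adjusted p under 0.1) lies above 0.

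Quinone, carbonyl and epoxide handling had 3 genes lower and 0 higher of the 12 tested at an adjusted p under 0.1. In the whole set of 18455 genes, 5.43% were lower and 5.41% higher by that threshold. Ces1g, a carboxylesterase, fell from 279.8 ± 21.4 to 104.3 ± 42.0 CPM (means ± SD, n = 3 each, adjusted p = 0.0582). Ugdh, which makes the UDP-glucuronate used in conjugation, fell from 218.8 ± 53.1 to 97.9 ± 24.7 CPM (adjusted p = 0.0612). Akr1c13, an aldo-keto reductase, fell from 78.8 ± 12.1 to 29.0 ± 14.1 CPM, also at 0.0612 (all from edgeR's quasi-likelihood test). This list had a median log2 fold change of -0.65, with 10 downward and 2 upward, beside 48.4% downward over all genes tested.

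Heme and iron genes had 3 lower of 7 tested at an adjusted p under 0.1, against 5.43% of all genes tested. They had 6 downward fitted changes, beside 48.4% downward over all genes. Slc48a1, a heme transporter, fell from 53.5 ± 9.22 to 30.3 ± 6.14 CPM (means ± SD, n = 3 each, adjusted p = 0.0703). Hmox2, the constitutive heme oxygenase, fell from 50.4 ± 2.29 to 32.2 ± 5.73 CPM (adjusted p = 0.0833), beside the log2 fold change of -0.53 of Hmox1, which missed that threshold. Fech, which inserts iron into the heme ring, fell from 144.6 ± 21.3 to 94.7 ± 3.45 CPM (adjusted p = 0.0939). All 3 p-values are from edgeR's quasi-likelihood test.

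NADPH supply had 1 gene lower of 6 at an adjusted p under 0.1, against 5.43% of all genes tested. Me1, the cytosolic malic enzyme, which is also an enzyme of fatty acid synthesis, had 45.0, 123.2 and 222.0 CPM in HFD libraries 1, 2 and 3 and 33.2, 23.0 and 31.1 CPM in HTG libraries 1, 2 and 3. HFD library 1 lay nearer to the HTG libraries than to the other HFD libraries. Me1 fell by 2.16 on the log2 scale (SE 0.50, adjusted p = 0.0616 in edgeR's quasi-likelihood test). Superoxide and peroxide enzymes had 0 of 4 at an adjusted p under 0.1 and 1 at an unadjusted p under 0.05, against 24.7% of all genes. It was Cat, the catalase of peroxisomes, with a log2 fold change of -0.53 and an adjusted p of 0.174 in the same test.

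**Figure D5:**
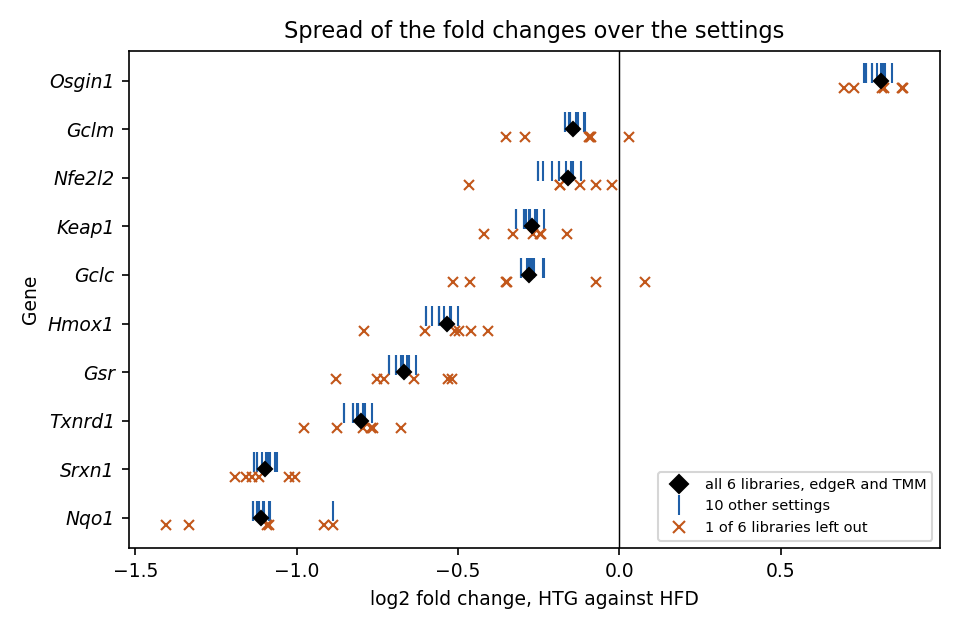
Log2 fold change, HTG against HFD, of each NRF2 gene with all 6 libraries in edgeR (diamonds), in 10 other settings (blue bars) and with 1 library left out (orange crosses). Srxn1 stays between -1.19 and -1.01 and Osgin1 between 0.70 and 0.88, whereas Gclc and Gclm cross 0 when HFD library 2 is left out (0.08 and 0.03).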

How the data were processed

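The deposited table holds whole-number estimated counts and FPKM values for every gene in every library, both made by the authors. The submitters' processing notes name HISAT2, StringTie and SAMtools, without versions, and the build mRatBN7.2, whereas the gene rows carry mouse Ensembl identifiers. The order of those steps, filters and the use of strand are not given in the sources used here. All 6 libraries were used, grouped by their titles. Estimated counts were tested in edgeR 4.0.16 (R 4.3.3; TMM scaling, filterByExpr, glmQLFit and glmQLFTest, group only). SE was taken from the fold change and its F statistic. CPM used the TMM totals. With 3 against 3 libraries an exact two-sided permutation test cannot go below 0.1. The edgeR p-values set the group difference against the spread between these libraries within their groups. Totals per library (50648778 to 90563477) limit the precision of low genes.

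The 10 genes, the pathway and marker lists and the thresholds were chosen with earlier results of these data known. All 10 genes were named, and from each further list at most 3 genes in each direction with the smallest unadjusted p under 0.05. Gpx2, Aldh3a1, Clec4f, Timd4, Reln and Sox9 were named after their values were seen, and the zonal and macrophage markers were named where they stand beside a result.

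Alternatives were DESeq2 1.42.0, DESeq2 size factors, upper-quartile scaling, no expression filter, a minimum of 10 counts in each library, a block for the replicate number, fits without 1 library, counts divided by 4, and limma 3.58.1 on log2(FPKM + 0.1) and log2(FPKM + 1), with a mean FPKM of at least 1 or no filter. Ratios from counts in place of FPKM were added after the data were seen. The test was tried on simulated counts with known changes. Promoter sequences were taken from RefSeq (GRCr8).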

Additional observations from a re-analysis of the deposited data

How the results depend on the processing

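All 10 NRF2 genes kept their direction in the 10 settings that used all 6 libraries. Without HFD replicate 2, Gclc (0.078) and Gclm (0.029) turned upward, and over the 6 fits without 1 library their lowest values were -0.515 and -0.351. The number of NRF2 genes at an adjusted p under 0.05, 0 with all libraries in edgeR, was 5 in DESeq2, 3 in limma on log2(FPKM + 0.1) and on log2(FPKM + 1) with a mean FPKM of at least 1, 2 with counts divided by 4, and 1 with no expression filter and with at least 10 counts in every library. At an adjusted p under 0.1 it was 4, against 6 in DESeq2 and both filtered limma fits, 5 with DESeq2 size factors, at least 10 counts or counts divided by 4, 3 with upper-quartile scaling or no filter, 2 in limma without a filter and 0 with the replicate block. Over all genes, the 2 at an adjusted p under 0.05 (0.0108% of 18455 tested) became 2401 in DESeq2 (13.8% of 18455). The filtered limma fits with a pseudocount of 0.1 and 1 gave 878 and 884 (8.03% and 8.09% of 10930). Counts divided by 4 gave 822 (5.52% of 14884), at least 10 counts 684 (4.43% of 15454) and no filter 162 (0.544% of 29763). Limma without a filter (29341 tested) and the replicate block (18455 tested) gave 0. The 2001 genes at an adjusted p under 0.1 (10.8% of 18455) became 3444 in DESeq2 and 0 with the replicate block, each of 18455. DESeq2 size factors gave 2023 and upper-quartile scaling 2078, also of 18455. The filtered limma fits gave 2399 and 2411 of 10930, at least 10 counts 2559 of 15454 and counts divided by 4 2572 of 14884. No filter gave 1303 of 29763, and limma without a filter 530 of 29341. Of the further pathway genes, 0 had an adjusted p under 0.05, against 22 in DESeq2, 9 and 8 in the filtered limma fits, and 5 with at least 10 counts or counts divided by 4. At 0.1 their 14 became 26 in DESeq2, 24 in both filtered limma fits, 9 with no filter, 5 in limma without a filter and 0 with the replicate block. The filtered limma fit with a pseudocount of 0.1 split its calls at 0.1 into 935 higher and 1464 lower, against 999 and 1002 in edgeR. The cause of these differences was not tested. The filters also changed the number of genes tested.

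Leaving out 1 library at a time gave 0 to 1 NRF2 genes at an adjusted p under 0.05, 0 to 6 at 0.1 and 5 to 6 at an unadjusted p under 0.05, with a median log2 fold change from -0.628 to -0.363. Over all genes it gave 0 to 653 and 0 to 2578 genes at an adjusted p under 0.05 and 0.1, and over the further pathway genes 0 to 8 and 0 to 24. The share of all genes at the unadjusted threshold was not computed for these fits. The log2 ratio of Gclc to Gclm differed by -0.126, from -0.263 to 0.056, with an upward sign without HFD replicate 2 (0.007) and HTG replicate 3 (0.056). That of Nfe2l2 to Keap1 ran from -0.300 to 0.294, downward without HTG replicate 2. From counts in place of FPKM the differences were -0.127 and 0.071.

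Replicate numbers did not pair the libraries: deviations from the group means correlated across genes with r of -0.153, -0.121 and 0.212 for replicates 1, 2 and 3, and not every library correlated best with its own number. The replicate block left 6 NRF2 genes at an unadjusted p under 0.05, and the share of all genes there was not computed for that fit. At an adjusted p under 0.1 it left 0 NRF2 genes and 0 of all 18455 genes. Scaling moved the median of all genes to between -0.001 and 0.06.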
